A study of Mus musculus with 2 samples.

Results

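Cells with almost no mitochondrial RNA made up a small part of the single-cell libraries of mouse eye organoids. Members were selected on measured values: a cell was taken when it had 500 to 5000 detected genes, no more than 26000 UMIs and under 0.5% of its UMIs in the genes encoded by the mitochondrial genome (mt- genes). A UMI is 1 tagged RNA molecule. On day 4, 339 of the 8154 cells within the gene and UMI limits were members (4.16%, exact Clopper-Pearson 95% interval 3.73 to 4.61%). On day 6, 210 of 6654 were (3.16%, interval 2.75 to 3.605%). The 549 members, called low-mt cells here, thus came from 14808 cells within the limits and from 16560 barcodes in all. They were set against the remaining cells of the same day with 0.5 to 10% of UMIs in mt- genes, which numbered 7812 on day 4 and 6440 on day 6 and are called other cells.

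The organoids were grown from mouse embryonic stem cells heterozygous for a GFP reporter knocked into Rax, which encodes a transcription factor of the eye field, so both groups and both days share that allele and carry no further treatment. Day 4 precedes the outgrowth of the optic vesicle and day 6 follows its start. Each day was read as 1 droplet library (10x Genomics 3' chemistry), made from 3 pooled experiments that the barcodes do not separate, and the organoids were dissociated with papain. With 1 library per day there is no replicate of either group, so no test was run, and every interval covers counting error only. The libraries shared 91 barcodes, of which 4 were low-mt cells on day 4, 3 were low-mt cells on day 6 and 0 were so on both days.

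The mitochondrial genome encodes subunits of the respiratory chain and of the ATP synthase, and all other mitochondrial proteins are made from nuclear genes and imported. Impaired mitochondria, lack of amino acids, misfolded protein in the endoplasmic reticulum and other insults converge on kinases that phosphorylate the initiation factor eIF2. This integrated stress response slows translation in general and favours the transcription factor ATF4, which raises Ddit3 (CHOP), Trib3 and genes of amino acid supply. DNA damage and ribosomal stress act through the transcription factor p53, whose targets arrest the cell cycle or promote death. In single-cell work a high mitochondrial share is commonly used to discard damaged cells, while cells at the low end usually stay in the data.

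The share of UMIs in mt- genes chose the cells, so its values are given as a description. The median share was 0.0709% in low-mt cells and 3.04% in other cells on day 4. On day 6 it was 0.0548% in low-mt cells and 2.51% in other cells. In UMIs this was a median of 6 per low-mt cell against 347 per other cell on day 4, and 5 against 317 on day 6. The low tail stood apart from the main peak: 198 cells on day 4 and 157 on day 6 lay under 0.1%, and counts per 0.1% bin fell to 21 and 4 cells before they rose again toward the peak. Only 6 cells on each day had no mt- UMI at all. The few mt- UMIs came from the same genes as elsewhere, although on day 4 in somewhat different shares. On that day mt-Atp6 gave 20.1% of them in low-mt cells (18.9 to 21.4%) and 23.1% in other cells. On day 6 it gave 25.4% and 24.996%. The shares of mt-Co3 were 22.1% in low-mt cells (20.9 to 23.5%) and 18.4% in other cells on day 4, and 17.1% and 17.6% on day 6.

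**Figure D1:**
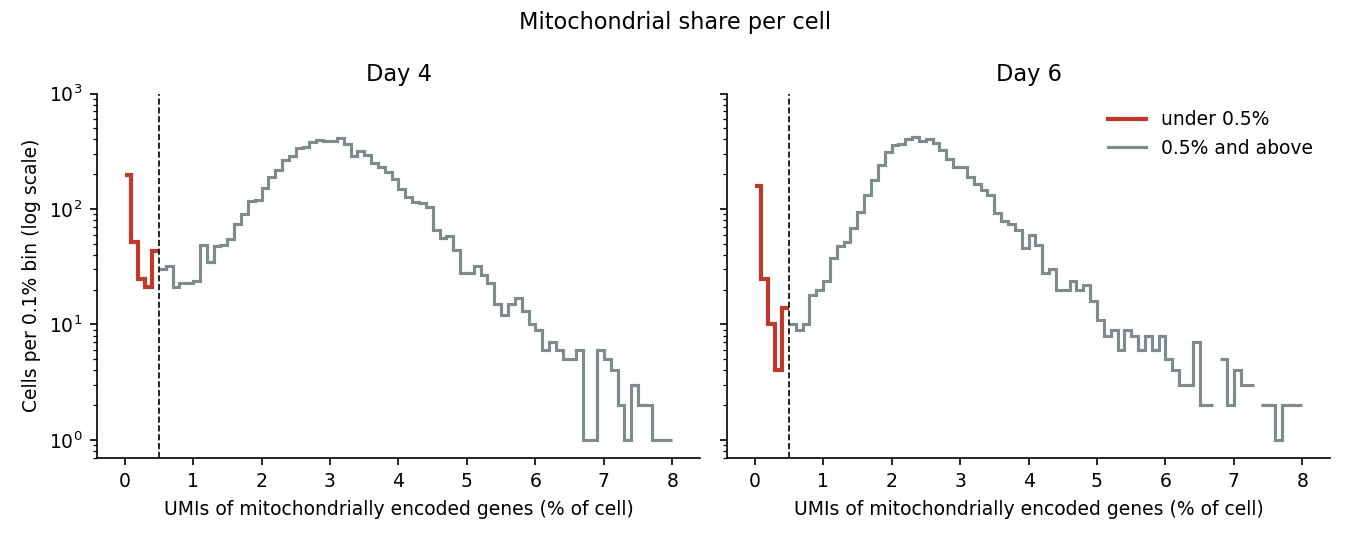
Cells per 0.1% bin of mitochondrial share (log scale) against the share of UMIs in mt- genes, up to 8%, for each day. The first bin holds 198 cells on day 4 and 157 on day 6, the counts then drop to 21 and 4 in the bin from 0.3 to 0.4%, and the main peak lies between 2 and 4%; the dashed line is the 0.5% limit.

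Low-mt cells were smaller libraries, but not empty ones. They held a median of 7500 UMIs and 2003 genes on day 4, against 11405.5 UMIs and 2741 genes in other cells. On day 6 the medians were 8151 UMIs and 2101.5 genes in low-mt cells, against 12628.5 UMIs and 3079 genes in other cells. Ribosomal protein genes took a median of 42.4% of UMIs per low-mt cell and 35.0% per other cell on day 4, and 42.6% against 32.2% on day 6. All low-mt cells passed the study's limits on ribosomal and haemoglobin genes, which 5 other cells on day 4 and 11 on day 6 did not. Summed over cells, the comparison rests on 2844743 UMIs of low-mt cells and 95837172 of other cells on day 4, and on 1906241 and 85973135 UMIs on day 6.

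For each gene, the UMIs of all cells in a group were added up and scaled to the group's total outside mt- genes, giving CPM. The ratio of low-mt over other cells carries an exact conditional binomial 95% interval. A gene was tested for size when the mean CPM of both groups was at least 10, and called higher at a ratio of 2 or more, or lower at 0.5 or less, with an interval that leaves out 1. On day 4, 328 of 6510 genes were higher (5.04%) and 477 lower (7.33%). On day 6, 421 of 6807 were higher (6.18%) and 970 lower (14.3%). Of the genes tested, 278 on day 4 and 342 on day 6 reached the level only through low-mt cells, and 133 and 202 of these are among those called higher, so that a count of higher genes is in part set by the filter. The median log2 ratio of all genes tested was -0.22 on day 4 and -0.35 on day 6.

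The balance of higher and lower calls depended on the scale, because ribosomal protein genes took a larger part of the low-mt total. Higher genes were 40.7% of calls on day 4 and 30.3% on day 6. With ribosomal protein genes also left out of the total, which moved the median to -0.08 and -0.13, they were 56.8% (574 higher, 437 lower) and 54.0% (844 higher, 719 lower). With ratios centred on the median gene they were 68.4% (483 higher, 223 lower) and 65.7% (750 higher, 391 lower). Changes near 2-fold are therefore given beside the median of all genes.

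The 6 genes given with these cells were Ddit3, Nupr1, Prph, Gadd45g, Perp and Plk2, chosen with these data already seen, so that their elevation is a description. Ddit3 (chromosome 10), which encodes the stress-response transcription factor CHOP, stood at 112 CPM in low-mt cells and 12.5 CPM in other cells on day 4, and at 108 and 9.77 CPM on day 6. Its ratio was 8.98 (7.91 to 10.2) on day 4 and 11.1 (9.46 to 12.9) on day 6. Nupr1 (chromosome 7), a small chromatin protein induced by stress, was at 129 CPM in low-mt cells against 15.6 CPM in other cells on day 4 and at 55.7 against 4.54 CPM on day 6. The ratio was 8.28 (7.37 to 9.29) on day 4 and 12.3 (9.80 to 15.3) on day 6, so both stress regulators differed by about an order of magnitude on each day.

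Prph (chromosome 15), which encodes peripherin, an intermediate filament protein of peripheral neurons, had the highest ratio of the 6. It was at 123 CPM in low-mt cells and 6.41 CPM in other cells on day 4 (ratio 19.1, 16.7 to 21.9), and at 101 and 3.09 CPM on day 6 (ratio 32.6, 26.9 to 39.4). Gadd45g (chromosome 13), a growth arrest gene, had 158 CPM in low-mt cells against 13.9 CPM in other cells on day 4 (ratio 11.3, 10.2 to 12.6), and 101 against 6.51 CPM on day 6 (ratio 15.6, 13.1 to 18.4). The other two are p53 targets. Perp (chromosome 10), a membrane protein of desmosomes and of p53-driven death, was at 60.2 CPM in low-mt cells and 6.78 CPM in other cells on day 4 (ratio 8.88, 7.45 to 10.5), and at 87.2 and 4.23 CPM on day 6 (ratio 20.6, 17.05 to 24.9). Plk2 (chromosome 13), a kinase of the polo family, was at 44.0 CPM in low-mt cells and 6.73 CPM in other cells on day 4 (ratio 6.54, 5.35 to 7.94), and at 95.04 and 8.31 CPM on day 6 (ratio 11.4, 9.66 to 13.5).

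The UMIs of these genes were spread over cells to different degrees. On day 4 the 10 cells richest in Ddit3 held 23.8% of its UMIs in low-mt cells, while the 10 cells richest in Gadd45g held 55.5%. On day 6 these shares were 29.1% for Ddit3, 69.9% for Gadd45g, 52.6% for Prph and 47.2% for Nupr1, with 1 cell alone giving 34 of the 192 Prph UMIs. On day 6 the levels of Gadd45g, Prph and Nupr1 were thus carried by few cells more than those of Ddit3, Perp (28.3%) or Plk2 (32.0%).

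Shares of cells were compared after drawing 5000 UMIs from every cell, and 25 low-mt cells and 157 other cells of day 4, and none of day 6, held too few UMIs for this. At least 1 Ddit3 UMI was then found in 33.4% of low-mt cells (28.2 to 39.0%) and in 4.77% of other cells (4.30 to 5.27%) on day 4. On day 6 the shares were 31.0% (24.8 to 37.7%) in low-mt cells and 4.46% (3.97 to 4.99%) in other cells. Without thinning they were 44.2% in low-mt cells against 10.1% in other cells on day 4, and 43.8% against 10.8% on day 6. No cell class here is known to lack these genes, so the share in other cells stands as the nearest measure of background. Their median depths of 11405.5 and 12628.5 UMIs exceed the 7500 and 8151 UMIs of low-mt cells.

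The remaining genes were also found in a larger share of low-mt cells at equal depth. Prph was found in 29.0% of low-mt cells against 2.495% of other cells on day 4, and in 42 of 210 cells against 1.10% on day 6. Perp was found in 23.9% against 2.87% on day 4 and in 31.0% against 1.94% on day 6. Nupr1 was found in 27.7% of low-mt cells against 5.64% of other cells on day 4 and in 14.8% against 1.60% on day 6. Gadd45g was found in 21.3% of low-mt cells against 5.38% of other cells on day 4 and in 16.7% against 2.08% on day 6, and Plk2 in 18.5% against 2.86% and in 63 of 210 cells against 3.51%. Among the classes of other cells, defined further on, these shares were taken for the naive pluripotent class only. There Nupr1 was found in 13.6% of cells on day 4 and 12.6% on day 6 (9.90 to 15.8%), and the day 6 share in low-mt cells (14.8%, 10.3 to 20.3%) overlapped that interval.

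Not every low-mt cell carried a marker. In thinned cells, 23.9% of low-mt cells and 80.1% of other cells had none of the 6 on day 4, and 30.5% and 87.4% had none on day 6. At least 3 of the 6 were found in 70 of 314 low-mt cells (22.3%) and in 49 of 7655 other cells (0.640%) on day 4, and in 42 of 210 and 22 of 6440 (0.342%) on day 6. Without thinning the shares with at least 3 were 40.7% of low-mt cells against 2.43% of other cells on day 4 and 36.7% against 1.44% on day 6.

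Across the whole range of mitochondrial share the 6 genes did not step down at the same place on both days. On day 4 their summed level was 626, 728, 699 and 441 CPM in the bins from 0 to 0.05, 0.05 to 0.1, 0.1 to 0.25 and 0.25 to 0.5%, and then 395, 159, 49.7 and 45.6 CPM in the bins from 0.5 to 1, 1 to 2, 2 to 4 and 4 to 10%. On day 6 it was 550, 616, 438 and 487 CPM below the limit, and 104, 41.4, 32.3 and 64.6 CPM above it. In day 4 cells between 0.5 and 1% (129 cells) Ddit3, Nupr1 and Plk2 were still near their levels in all low-mt cells, at 118, 121 and 41.6 CPM. Prph, Gadd45g and Perp were below theirs in that bin, at 37.2, 38.1 and 38.9 CPM. Day 6 cells in the same bin (67 cells) lay closer to the main peak in the summed level. Ddit3 alone was already at 21.4 CPM, from 4 UMIs, in the 22 day 6 cells between 0.25 and 0.5%. Cells just inside the limit (0.4 to 0.5%) and just outside it (0.5 to 0.6%) had 92.7 CPM (43 cells) and 219 CPM (30 cells) of Ddit3 on day 4, and 32.0 CPM (14 cells) and 42.8 CPM (10 cells) on day 6.

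**Figure D2:**
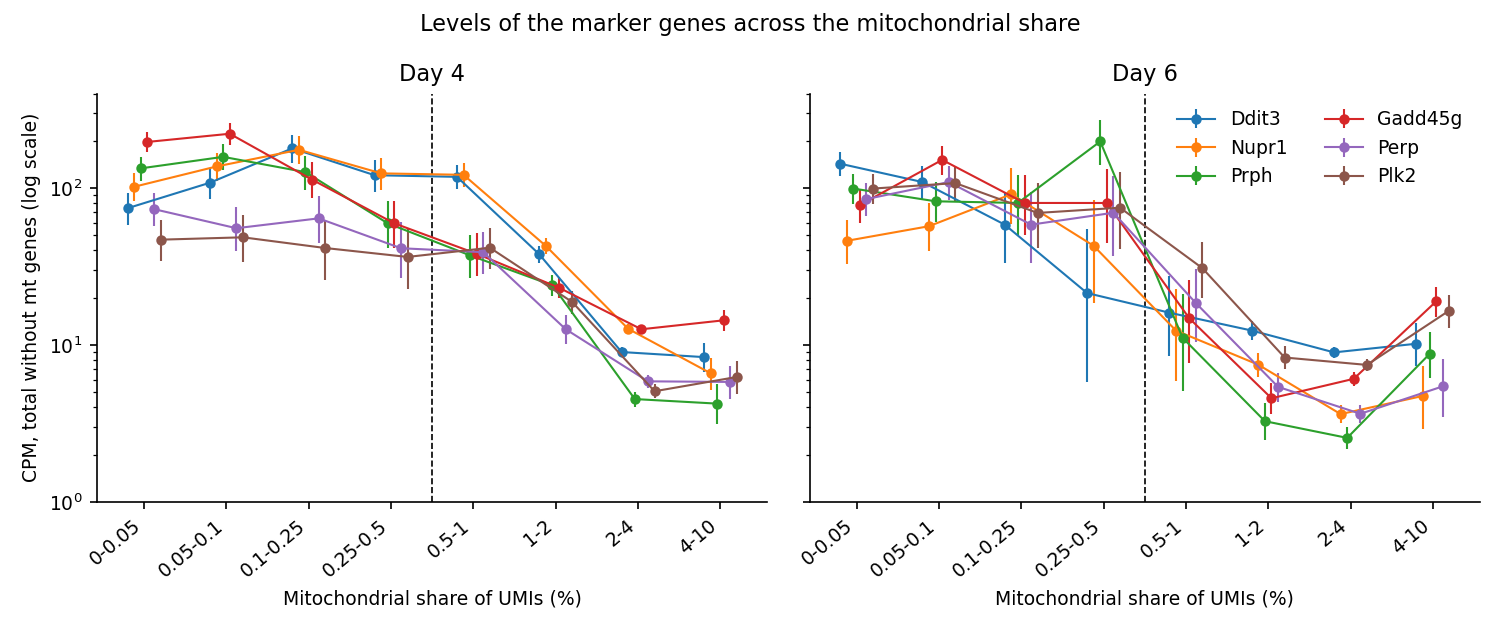
Level of the 6 marker genes (CPM, log scale, with exact Poisson 95% intervals) in 8 bins of mitochondrial share for each day; the dashed line is the 0.5% limit. Ddit3 runs from 74.3 CPM in the lowest to 8.36 CPM in the highest bin on day 4 and from 143 to 10.2 CPM on day 6; the high Prph point on day 6 between 0.25 and 0.5% holds the 34 UMIs of 1 cell.

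Among the 18 regulators of the integrated stress response, which include Ddit3 and Nupr1, 11 were tested on day 4 and 12 on day 6, and 6 and 7 of these were higher and 0 lower on either day, against the 5.04% and 6.18% of all genes tested. The median log2 ratio was 1.43 on day 4 and 1.56 on day 6, and 0.89 on day 6 over the members with at least 10 CPM in other cells, since 3 of the 12 passed only through low-mt cells. Beside Ddit3 and Nupr1, the pseudokinase Trib3 (chromosome 2) was at 59.1 CPM in low-mt cells and 10.7 CPM in other cells on day 4 (ratio 5.50, 4.65 to 6.49), and at 40.4 and 3.90 CPM on day 6 (ratio 10.4, 7.97 to 13.3). Ddit4 (chromosome 10), an inhibitor of mTORC1, was at 370 CPM in low-mt cells against 90.9 CPM in other cells on day 4 (ratio 4.07, 3.82 to 4.35) and at 250 against 34.0 CPM on day 6 (ratio 7.36, 6.66 to 8.11).

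Further regulators, chosen after their values were seen, followed. The transcription factor gene Atf5 had a ratio of 4.70 on day 4 and 3.80 on day 6. Ppp1r15a, which encodes the phosphatase subunit GADD34 that reverses eIF2 phosphorylation, had 2.69 on day 4 and 3.69 on day 6. Atf4 itself, which is controlled mainly at translation, was at 242 CPM in low-mt cells and 148 CPM in other cells on day 4 and at 260 and 140 CPM on day 6, ratios of 1.63 and 1.86 that stayed under the 2-fold limit.

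The enzymes and transporters of amino acid supply are another group that ATF4 controls. Of 16 members tested on each day, 0 were called in either direction, where 5.04% and 6.18% of all genes were higher, so that so short a list with no call is near the background. Their median log2 ratio was -0.03 on day 4 and -0.26 on day 6, close to the medians of all genes. Within the optic vesicle class of day 6, defined further on, 3 of 17 were higher and the median was 0.22. Asns (chromosome 6), asparagine synthetase, was at 145 CPM in low-mt cells and 80.8 CPM in other cells on day 4 (ratio 1.80, 1.62 to 1.98), and at 151 and 102 CPM on day 6 (ratio 1.48, 1.31 to 1.66). Slc3a2, the heavy chain of amino acid exchangers, had ratios of 1.49 and 1.40, and Pck2, the mitochondrial phosphoenolpyruvate carboxykinase, 1.12 and 1.71. Mthfd1l, of mitochondrial folate metabolism, had 0.690 and 0.558.

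The tRNA synthetases of the cytosol were likewise near the median of all genes, at -0.19 on day 4 and -0.45 on day 6. Of 21 tested, 1 was higher on day 4 (Sars, ratio 2.07, 1.93 to 2.21) and 1 was lower on each day (Kars, ratio 0.474 on day 4 and 0.430 on day 6). Across all genes tested, 5.04% and 6.18% were higher and 7.33% and 14.3% lower. Among the chaperones of the endoplasmic reticulum, 1 of 23 was higher and 0 lower on day 4, and 1 of 22 was higher and 6 lower on day 6, with medians of -0.24 and -0.62. Hspa5 (chromosome 2), the chaperone BiP and a standard readout of misfolded protein in that compartment, was at 116 CPM in low-mt cells and 230 CPM in other cells on day 4 (ratio 0.504, 0.451 to 0.562), and at 145 and 351 CPM on day 6 (ratio 0.413, 0.366 to 0.465). Calr, calreticulin, had ratios of 0.591 and 0.438, and Dnajb9, a cochaperone, 1.68 and 2.55. The secreted stress factors were mostly too low to be tested, with Vegfa at ratios of 1.89 and 1.71.

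The promoters of these groups were searched for a pair of short motifs to show what they have in common by sequence. The C/EBP-ATF response element, written TGATGNAAN and looked for on both strands, is the site that ATF4 and CHOP-containing dimers bind. In RefSeq promoters (250 bases before to 50 after the start, build GRCm38.p6) it was found in 3.95% of 32851 windows and for 4.50% of genes. It was found for 4 of the 17 stress response regulators with a promoter in the table (23.5%), namely Atf3, Nupr1, Trib3 and Chac1, and for 6 of 19 genes of amino acid supply (31.6%) and 5 of 13 tRNA synthetases (38.5%). The endoplasmic reticulum stress element, also looked for on both strands, was found in 0.119% of windows and for 9 of 21 chaperones of that compartment (42.9%). Both the groups that stood higher and those that did not thus hold the element, and a match is a description of letters, not a bound site. The 150 bases around a match are shown for Nupr1 and Gadd45g, the markers with one, for Trib3, for Asns, which carries the element but stayed under 2-fold, and for Hspa5 with the endoplasmic reticulum stress element. Capitals mark the match. Nupr1 is at chr7:126625503-126625652 on the minus strand, Gadd45g at chr13:51846502-51846651 on the plus strand, Trib3 at chr2:152344011-152344160 on the minus strand, Asns at chr6:7693160-7693309 on the minus strand and Hspa5 at chr2:34771959-34772108 on the plus strand. All are written 5′ to 3′ in the direction of the gene.
Nupr1: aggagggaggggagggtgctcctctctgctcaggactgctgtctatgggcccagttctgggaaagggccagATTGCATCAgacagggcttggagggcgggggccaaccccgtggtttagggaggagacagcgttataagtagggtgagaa
Gadd45g: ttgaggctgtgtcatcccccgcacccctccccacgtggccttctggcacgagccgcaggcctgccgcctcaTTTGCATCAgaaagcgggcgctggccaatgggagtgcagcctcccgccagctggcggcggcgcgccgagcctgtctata
Trib3: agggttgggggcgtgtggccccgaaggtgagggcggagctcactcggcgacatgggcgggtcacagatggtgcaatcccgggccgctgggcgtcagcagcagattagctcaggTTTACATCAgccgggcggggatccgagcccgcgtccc
Asns: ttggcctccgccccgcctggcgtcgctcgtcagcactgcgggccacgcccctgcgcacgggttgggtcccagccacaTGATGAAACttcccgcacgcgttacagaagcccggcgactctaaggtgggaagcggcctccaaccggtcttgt
Hspa5: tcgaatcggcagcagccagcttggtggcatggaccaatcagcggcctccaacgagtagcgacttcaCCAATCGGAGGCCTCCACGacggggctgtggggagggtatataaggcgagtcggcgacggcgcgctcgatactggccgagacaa

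**Figure D3:**
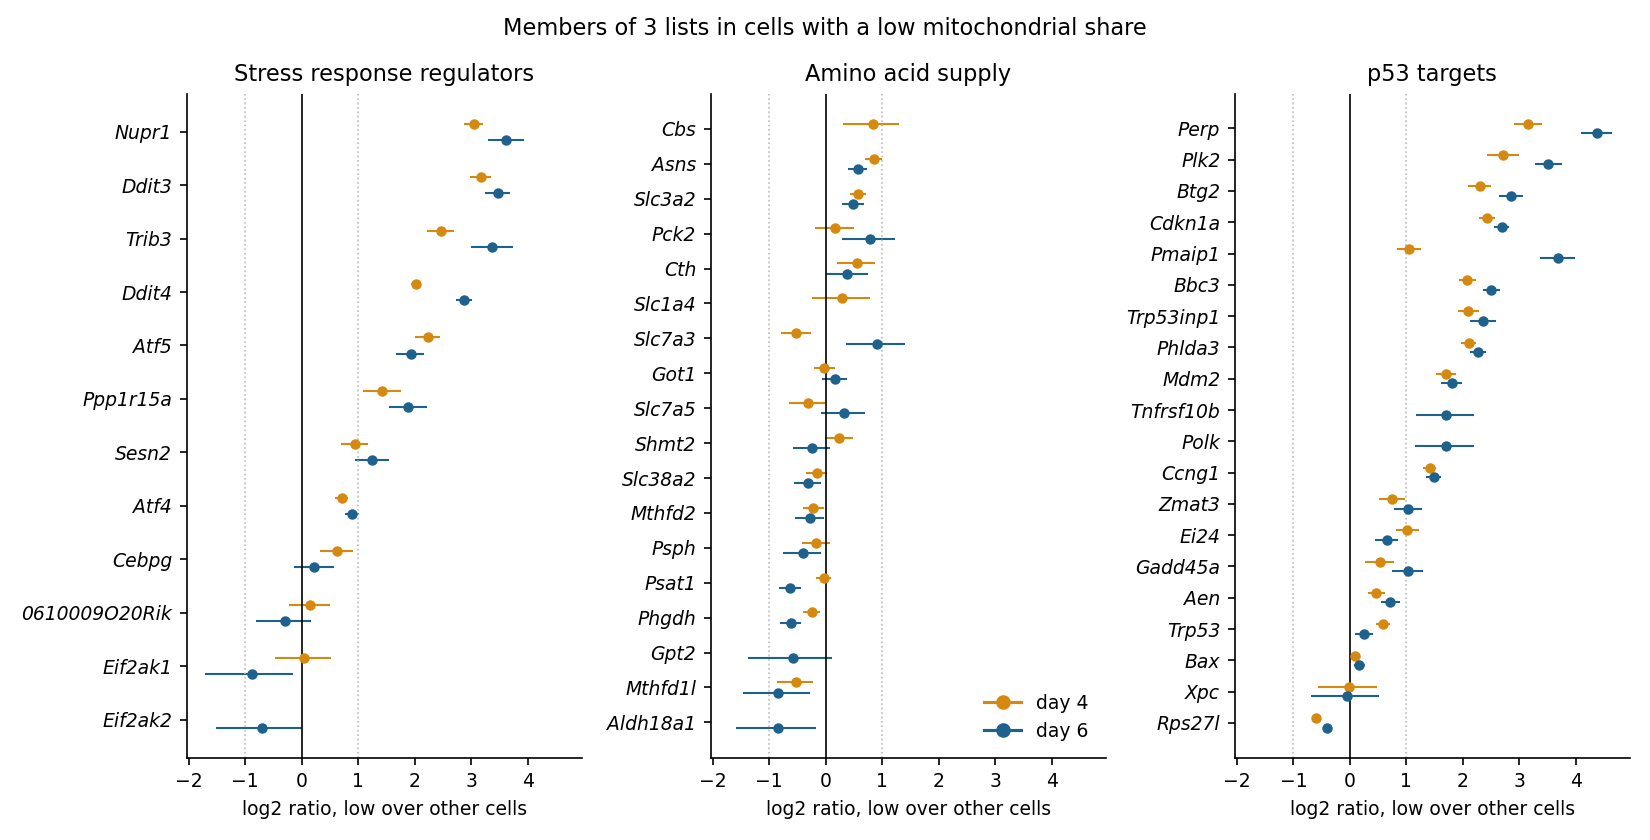
Log2 ratio of low-mt over other cells (x axis) for each tested member of 3 lists, with exact conditional binomial 95% intervals; dotted lines mark 2-fold. Nupr1, Ddit3, Trib3 and Ddit4 lie beyond a log2 ratio of 2 on both days, no tested member of the amino acid supply list lies beyond 1, and 8 p53 targets besides Perp and Plk2 are beyond 2-fold on both days.

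Targets of p53 were higher in many cases. Of 28, with Perp and Plk2 among them, 18 were tested on day 4 and 11 were higher, and 20 were tested on day 6 and 14 were higher, with 0 lower on either day, against 5.04% and 6.18% of all genes higher. The medians were 1.23 and 1.70, and 1.04 and 1.03 over members with at least 10 CPM in other cells. Cdkn1a (chromosome 17), the cell cycle inhibitor p21, was at 152 CPM in low-mt cells and 28.2 CPM in other cells on day 4 (ratio 5.39, 4.85 to 5.97), and at 287 and 44.6 CPM on day 6 (ratio 6.44, 5.88 to 7.05). Btg2 (chromosome 1), which slows proliferation, was at 84.8 CPM in low-mt cells and 17.2 CPM in other cells on day 4 (ratio 4.93, 4.28 to 5.64), and at 109 and 15.1 CPM on day 6 (ratio 7.23, 6.21 to 8.37).

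The following targets were chosen after their values were seen. Bbc3, which encodes the death-promoting protein PUMA, had ratios of 4.22 and 5.68, and Mdm2, the ubiquitin ligase that p53 induces against itself, 3.27 and 3.49. Pmaip1 (NOXA) differed more between the days, with 73.9 CPM in low-mt cells and 35.7 CPM in other cells on day 4 and 59.3 and 4.64 CPM on day 6. Trp53 itself (ratios 1.51 and 1.19) and Bax, a pore-forming death protein (1.06 and 1.13), stayed under 2-fold, and Rps27l, also a ribosomal protein gene, had 0.661 and 0.752. For the next list the background is again 5.04% and 6.18% of all genes higher, and 7.33% and 14.3% lower. The list of GADD45 and growth arrest genes includes the marker Gadd45g, which was picked for being high in these cells. In this list 6 of 9 were higher and 0 lower on day 4, and 6 of 10 higher and 1 lower on day 6. Of those tested, 1 on day 4 and 2 on day 6 passed the level only through low-mt cells. The medians were 1.78 and 1.14 (1.995 and 0.74 over members with at least 10 CPM in other cells). The day 6 median was 0.27, with 4 of 10 higher, when other cells were weighted to the classes of low-mt cells. Btg1, a relative of Btg2, was at 233 CPM in low-mt cells and 47.4 CPM in other cells on day 4 (ratio 4.91, 4.52 to 5.33), and at 264 and 96.5 CPM on day 6 (ratio 2.74, 2.497 to 2.997).

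In the machinery that carries out cell death, 0 of 16 genes tested on day 4 were higher and 3 lower, and 0 of 18 tested on day 6 were higher and 2 lower, with medians of -0.59 and -0.52. With 5.04% and 6.18% of all genes higher, 0 in lists of this length is near the background. Lower genes were 7.33% and 14.3% of all genes. Cycs, cytochrome c, had ratios of 0.430 and 0.386, and Bok, a BCL2 relative, 0.365 and 0.402. Mcl1, a short-lived survival protein, had 0.437 and 0.768.

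Immediate early genes, which respond within minutes to many stimuli including dissociation of tissue, were higher for 5 of 9 tested on day 4 and 3 of 11 on day 6, with 0 lower (medians 1.19 and 0.55). The day 4 median was 0.04 without the 2 members that passed only through low-mt cells. Higher genes made up 5.04% of all genes tested on day 4 and 6.18% on day 6. Klf6 (chromosome 13) was at 134 CPM in low-mt cells and 33.2 CPM in other cells on day 4 (ratio 4.04, 3.62 to 4.49), and at 173 and 17.02 CPM on day 6 (ratio 10.1, 8.97 to 11.4). Jun had ratios of 3.13 and 3.91, Junb 4.24 and 2.90, and Fos 3.18 and 1.88. The day 6 median was 0.42 with weighted classes, 0.17 within the naive and primed classes and 0.29 within the optic vesicle class. The part of dissociation in these values was not tested.

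Responses to other stresses were mixed. Their counts stand beside 5.04% and 6.18% of all genes higher and 7.33% and 14.3% lower. A call or 2 in lists of this length is thus near the background. In the hypoxia list 2 of 14 were higher on day 4, and 5 of 14 were higher and 1 lower on day 6 (medians 0.46 and 0.63, and 0.03 and 0.44 over members with at least 10 CPM in other cells), with Ndrg1 at ratios of 2.09 and 5.32 and the oxygen sensor gene Egln1 at 0.503 and 0.377. On day 6 this list had 1 of 14 higher and a median of 0.12 with weighted classes, and 1 of 15 higher, 2 lower and a median of -0.04 within the naive and primed classes. Among targets of the oxidative stress factor NRF2, 2 of 19 were higher and 2 lower on day 4, and 3 were higher and 1 lower on day 6 (medians -0.43 and -0.48), and within the naive and primed classes of day 6, 1 of 20 was higher and 10 were lower (median -0.95). Hmox1, haem oxygenase, was at 62.3 CPM in low-mt cells and 21.8 CPM in other cells on day 4 (ratio 2.86, 2.44 to 3.34) and at 74.6 and 14.9 CPM on day 6 (ratio 4.997, 4.17 to 5.95), whereas Prdx1, peroxiredoxin, had 0.492 and 0.541. Cytosolic heat shock genes gave 0 higher and 1 lower of 10 on day 4 and 2 higher and 1 lower of 12 on day 6 (medians -0.05 and -0.24). Glycolytic enzymes and glucose transporters had 0 calls of 19 on each day (medians -0.06 and 0.02), with Aldoa at ratios of 1.41 and 1.79. Within the naive and primed classes of day 6, 3 of 20 were lower and the median was -0.73.

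Genes of the lysosome formed a broad group of higher genes. This list was added after the values were seen. Of 47 tested on each day, 26 were higher and 0 lower on day 4, and 22 were higher and 1 lower on day 6, against 5.04% and 6.18% of all genes higher, with medians of 1.10 and 0.97 (0.97 and 0.84 over members with at least 10 CPM in other cells). Cd63 (chromosome 10), a membrane protein of late endosomes and lysosomes, was at 1017 CPM in low-mt cells and 200 CPM in other cells on day 4 (ratio 5.09, 4.89 to 5.29), and at 759 and 230 CPM on day 6 (ratio 3.30, 3.13 to 3.49). Hexa (chromosome 9), a subunit of lysosomal hexosaminidase, was at 276 CPM in low-mt cells and 45.2 CPM in other cells on day 4 (ratio 6.10, 5.64 to 6.58), and at 242 and 48.3 CPM on day 6 (ratio 5.001, 4.53 to 5.51). Fuca2, a fucosidase, had ratios of 5.72 and 3.31, and Cd68, a lysosomal glycoprotein, 5.595 and 8.08. Day 6 cells with 4 to 10% of UMIs in mt- genes also had more Cd63 and Hexa than those with 2 to 4%. Cd63 was at 583 against 209 CPM there and Hexa at 105 against 45.5 CPM. On day 4 the same bins had 207 and 186 CPM of Cd63 and 44.9 and 41.9 CPM of Hexa. Genes outside this list also differed between these bins on day 6. Cdkn1a was at 119 against 37.9 CPM, Sqstm1 at 51.3 against 24.0 CPM and Malat1 at 7146 against 4114 CPM, while Bbc3 was at 35.2 against 36.6 CPM.

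Many lysosomal genes carry the motif TCACGTGA (the core of the CLEAR element), which factors of the TFEB family bind. It reads the same on both strands and was found in 0.974% of the 32851 promoter windows, and for 7 of 48 lysosomal genes (14.6%) against 1.12% of all genes. It was also found for 2 of 13 tRNA synthetases (15.4%), which were not higher as a list. The window of Ctsa (cathepsin A, chr2:164833673-164833822, plus strand, build GRCm38.p6) is shown because it holds 2 matches, in capitals, 9 bases apart. Ctsa had ratios of 3.37 (2.89 to 3.91) on day 4 and 2.18 (1.77 to 2.67) on day 6.
Ctsa: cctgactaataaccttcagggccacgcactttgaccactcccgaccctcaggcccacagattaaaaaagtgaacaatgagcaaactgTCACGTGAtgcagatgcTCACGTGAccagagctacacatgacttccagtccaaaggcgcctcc

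Genes that act in the removal and shape of mitochondria were near 0 as a list, with 3 of 21 higher on day 4 and 2 of 21 on day 6 and medians of 0.08 and -0.14. For comparison, 5.04% and 6.18% of all genes were higher. Sqstm1 (chromosome 11), the autophagy receptor p62, was at 164 CPM in low-mt cells and 38.2 CPM in other cells on day 4 (ratio 4.29, 3.88 to 4.72), and at 153 and 25.9 CPM on day 6 (ratio 5.91, 5.21 to 6.68). Gabarap, of the autophagosome, had ratios of 2.94 and 1.81, Map1lc3b, its relative, 1.76 and 1.87, and Pink1, a kinase that marks depolarised mitochondria, 2.23 and 1.79. Sqstm1 was thus called on both days, and Gabarap and Pink1 on day 4.

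The low mitochondrial share did not come with an equal loss of nuclear transcripts for mitochondrial proteins. Over all genes tested the medians were -0.22 and -0.35, and 7.33% and 14.3% of genes were lower. Nuclear genes of complex I had medians of -0.51 and -0.64 (0 higher, 2 and 3 lower of 37), those of complexes II and III -0.42 and -0.70 (3 and 4 lower of 14), of complex IV -0.39 and -0.55 (0 and 1 lower of 16) and of the ATP synthase -0.42 and -0.50 (2 and 6 lower of 17). The lowest ratio on day 4 among these was that of Atp5g1 (chromosome 11), a subunit of the membrane rotor, at 227 CPM in low-mt cells and 607 CPM in other cells on day 4 (ratio 0.375, 0.346 to 0.405), and at 170 and 488 CPM on day 6 (ratio 0.348, 0.311 to 0.388). Cox7a2l, a supercomplex assembly factor, ran the other way at 968 CPM in low-mt cells and 533 CPM in other cells on day 4 (ratio 1.81, 1.75 to 1.89), and at 1073 and 560 CPM on day 6 (ratio 1.91, 1.83 to 2.002). The counts lower for complexes I and IV did not exceed the shares of all genes. Those for complexes II and III and for the ATP synthase did, by few genes.

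Upkeep and expression of the mitochondrial genome gave medians of -0.56 and -0.44 (0 higher, 1 of 26 and 4 of 28 lower), with Slirp, which binds mitochondrial mRNA, at ratios of 0.490 and 0.476. Import gave -0.58 and -0.73 (1 and 3 lower of 23), with Tomm5, of the outer membrane translocase, at 0.408 and 0.411. Mitochondrial chaperones and proteases gave -0.27 and -0.38 (1 and 2 lower of 16), with Hspd1, the chaperone HSP60, at 0.475 and 0.380, and the TCA cycle -0.24 and -0.42 (1 lower of 21 on each day), with Fh1, fumarase, at 0.638 and 0.423. All medians of these nuclear lists thus lay within 1 of 0 on the log2 scale. The counts lower in this paragraph were near or below the 7.33% and 14.3% of all genes.

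The nuclear noncoding RNA Malat1 (chromosome 19) was the most abundant gene called on either day. It stood at 24376 CPM in low-mt cells and 5545 CPM in other cells on day 4 (ratio 4.40, 4.36 to 4.43), and at 27002 and 4209 CPM on day 6 (ratio 6.42, 6.36 to 6.47). In its list 2 of 7 were higher and 2 lower on day 4, and 3 of 8 were higher and 0 lower on day 6 (medians 0.36 and 0.99). Over all genes 5.04% and 6.18% were higher and 7.33% and 14.3% lower. Snhg12, a small nucleolar RNA host, was at 181 CPM in low-mt cells and 54.1 CPM in other cells on day 4 and at 176 and 47.3 CPM on day 6, while H19 was at 9.15 and 27.5 CPM on day 4.

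Messenger RNAs of the translation machinery also took a larger share. Cytosolic ribosomal protein genes summed to 42.0% of the CPM total in low-mt cells and 36.4% in other cells on day 4, and to 42.7% and 33.5% on day 6. Of the 81 tested, 63 on day 4 and 71 on day 6 had a ratio over 1, although 0 on day 4 and 1 on day 6 (Rpl39l) passed 2-fold, with medians of 0.23 and 0.33. Rps19 (chromosome 7) had ratios of 1.56 and 1.78. Elongation factors and other mRNAs of the same regulation gave 13 and 14 of 17 ratios over 1 and no call (medians 0.23 and 0.31), with Eef2 at 1.76 and 1.69. These signs hold on the scale without mt- genes, in which the ribosomal proteins are themselves a large part of the total.

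Genes of DNA replication were lower as a group. Of 35 S phase genes tested on each day, 15 on day 4 and 27 on day 6 were lower and 0 higher, against 7.33% and 14.3% of all genes, and all 35 had a ratio under 1 on both days. Their medians were -0.95 and -1.21. Rrm2 (chromosome 12), a subunit of ribonucleotide reductase, was at 56.3 CPM in low-mt cells and 151 CPM in other cells on day 4 (ratio 0.373, 0.317 to 0.436), and at 74.0 and 240 CPM on day 6 (ratio 0.308, 0.259 to 0.364). Pcna, the polymerase clamp, had ratios of 0.386 and 0.278, Clspn, of the replication checkpoint, 0.339 and 0.267, and Cdc6, which licenses origins, 0.355 and 0.200. Along the bins of mitochondrial share on day 4, Rrm2 was at 31.6, 37.4, 56.5 and 119 CPM below the limit and at 101, 129, 157 and 133 CPM above it, so that the cells nearest to 0 were lowest.

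Genes of G2 and M phase had medians of -0.53 and -0.66. Of 50, 1 was higher and 3 lower on day 4, and 2 were higher and 12 lower on day 6, and with 7.33% and 14.3% of all genes lower the day 4 count does not exceed the background. Mki67, a proliferation marker, had ratios of 0.431 and 0.355, and Psrc1, a microtubule protein, went the other way at 165 CPM in low-mt cells and 58.5 CPM in other cells on day 4 (ratio 2.83, 2.57 to 3.11), and at 201 and 68.6 CPM on day 6 (ratio 2.93, 2.64 to 3.25).

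Synthesis of lipids was the most reduced metabolic group. For cholesterol synthesis 7 of 20 genes were lower on day 4 and 12 of 19 on day 6, with 0 higher and medians of -0.80 and -1.42, where 7.33% and 14.3% of all genes were lower. Idi1 (chromosome 13), an isomerase of the isoprenoid steps, was at 18.3 CPM in low-mt cells and 63.8 CPM in other cells on day 4 (ratio 0.287, 0.214 to 0.377), and at 18.4 and 103 CPM on day 6 (ratio 0.179, 0.125 to 0.249). Hmgcs1, which makes the precursor of mevalonate, had ratios of 0.354 and 0.287.

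Fatty acid synthesis, a list added after the values were seen, had 6 of 11 genes lower and 1 higher on day 4, and 8 of 11 lower and 0 higher on day 6 (medians -1.28 and -1.63), against the same 7.33% and 14.3% of all genes lower. Fabp5 (chromosome 3), a fatty acid carrier, was at 127 CPM in low-mt cells and 494 CPM in other cells on day 4 (ratio 0.257, 0.231 to 0.285), and at 201 and 840 CPM on day 6 (ratio 0.240, 0.216 to 0.265). Scd2, a desaturase, had ratios of 0.349 and 0.203, and Fasn, fatty acid synthase, 0.411 and 0.259. Splicing factors of the SR and hnRNP families, also added after the values were seen, had 11 of 32 lower on day 4 and 18 of 32 on day 6, with 0 higher (medians -0.78 and -1.10), again where 7.33% and 14.3% of all genes were lower. Sfpq (chromosome 4) was at 69.0 CPM in low-mt cells and 241 CPM in other cells on day 4 (ratio 0.286, 0.247 to 0.329), and at 77.2 and 260 CPM on day 6 (ratio 0.297, 0.251 to 0.349).

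**Figure D4:**
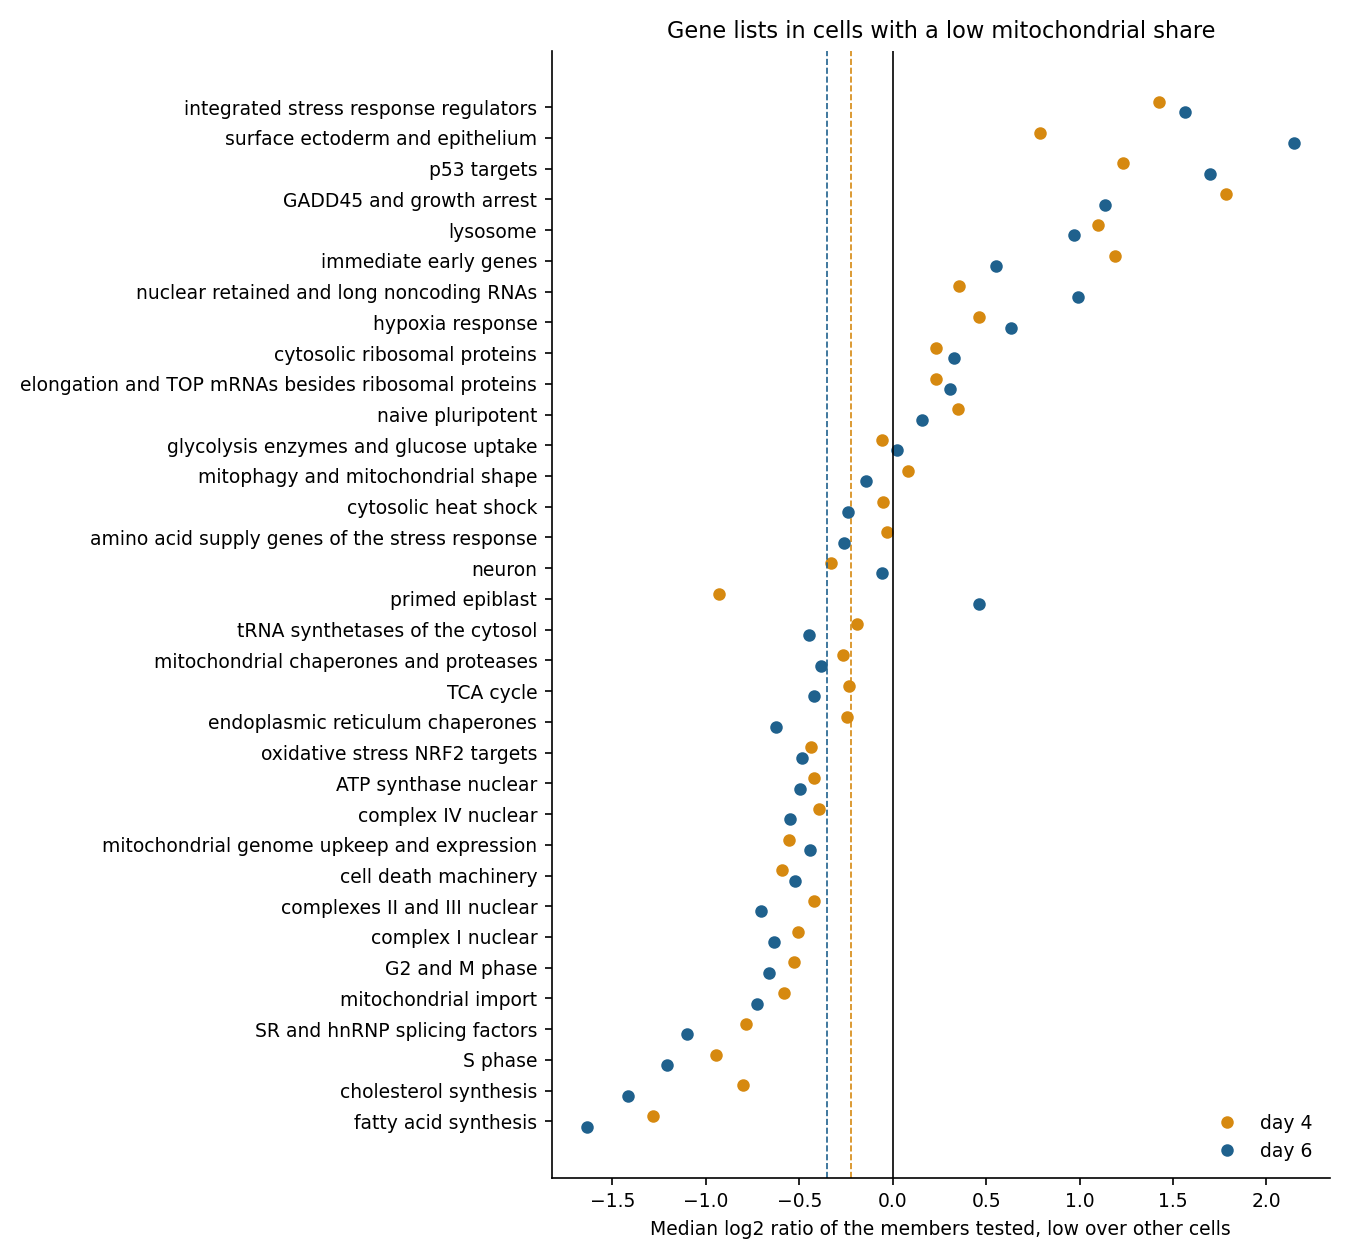
Median log2 ratio of low-mt over other cells (x axis) of the tested members of each gene list with at least 5 tested on both days; dashed lines give the median of all genes tested, -0.22 on day 4 and -0.35 on day 6. Regulators of the integrated stress response (1.43 and 1.56) and p53 targets (1.23 and 1.70) lie to the right, and cholesterol synthesis (-0.80 and -1.42), S phase (-0.95 and -1.21) and fatty acid synthesis (-1.28 and -1.63) to the left.

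Beyond the lists, the 10 genes with the highest ratio at a mean of at least 50 CPM held several with no single function. On day 4 they were Prph, Gadd45g, Ddit3, Nupr1, Renbp, Hexa, Ass1, Cdkn1a, Cd63 and Btg2. Ass1 (chromosome 2), argininosuccinate synthase of the urea cycle, was at 94.3 CPM in low-mt cells and 16.6 CPM in other cells on day 4 (ratio 5.69, 4.98 to 6.49), and at 68.8 and 8.06 CPM on day 6 (ratio 8.54, 7.02 to 10.3). Renbp, an enzyme of amino sugars, had ratios of 6.23 and 4.01. On day 6 the 10 were Prph, Gadd45g, Plk2, Trh, Ddit3, Klf6, Sycp3, Lefty1, Klf9 and Ddit4. Lefty1 (chromosome 1), a secreted antagonist of Nodal, was at 76.7 CPM in low-mt cells and 6.83 CPM in other cells on day 4 (ratio 11.2, 9.60 to 13.1), and at 92.9 and 12.5 CPM on day 6 (ratio 7.42, 6.29 to 8.71). Trh, a peptide hormone precursor, was higher on day 6 alone, at 323 CPM in low-mt cells and 28.9 CPM in other cells, with 90.5 and 63.8 CPM on day 4. Sycp3, a protein of meiotic chromosomes, had ratios of 2.59 and 9.73, and the transcription factor gene Klf9 3.01 and 7.36. Aqp3, an aquaporin that the level rule left out, was chosen after its values were seen for the highest ratio of all genes tested on day 4: 32.0 CPM in low-mt cells and 0.797 CPM in other cells (ratio 40.2, 29.3 to 55.4).

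The 10 with the lowest ratio on day 4 were Fabp5, Psmb10, Id3, Sfpq, Mest, Fgf5, Dnmt3b, Dut, L1td1 and Hnrnpd. Mest (chromosome 6), an imprinted gene, was at 72.5 CPM in low-mt cells and 248 CPM in other cells on day 4 (ratio 0.292, 0.254 to 0.335), and at 468 and 1725 CPM on day 6 (ratio 0.272, 0.254 to 0.290). Id3, an inhibitor of differentiation factors, had ratios of 0.284 and 0.279, and Psmb10, a subunit of the immunoproteasome, 0.275 and 0.467. On day 6 the list was led by genes of the eye field and held Six6, Lhx2, Ptn, Rax, Idi1, Pax6, Sfrp1, Hmga2, Scd2 and Cdh2. Six6 (chromosome 12) was at 11.03 CPM in low-mt cells and 117 CPM in other cells on day 6 (ratio 0.0945, 0.0585 to 0.145), Rax at 15.8 and 98.5 CPM (ratio 0.160, 0.108 to 0.228) and Pax6 at 47.3 and 257 CPM (ratio 0.184, 0.148 to 0.226).

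The day 6 difference in eye field genes went with a different make-up of the group. Each cell was put in the class, of 8, whose marker genes gave it the most UMIs, with the 6 markers left out. On day 4 the primed epiblast class held 67.6% of low-mt cells (62.3 to 72.5%) and 78.5% of other cells, and the naive pluripotent class 18.0% and 18.3%. On day 6 the optic vesicle class held 23.3% of low-mt cells (17.8 to 29.6%) against 73.6% of other cells, and the primed epiblast class 31.0% (24.8 to 37.7%) against 1.79%. Of all 180 day 6 cells of the primed class, 65 were low-mt cells (36.1%, 29.1 to 43.6%), compared with 49 of 4790 of the optic vesicle class (1.02%). On day 4 the optic vesicle class held 1.47% of low-mt cells and 0.576% of other cells. By these classes the labelled cell type, retina progenitors, described few cells of either group on day 4. On day 6 it described most other cells but not most low-mt cells. Classes are drawn from genes that themselves differ between the groups, and a lower level of eye genes in a cell moves it out of the class, so that a lack of eye cells and a loss of eye transcripts cannot be told apart.

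The identity lists stand beside 7.33% and 14.3% of all genes lower on days 4 and 6, and 5.04% and 6.18% higher. In the optic vesicle list 7 of 7 genes tested were lower on day 6 (median -2.45, summed level 213 CPM in low-mt cells and 960 CPM in other cells), and 1 of 3 on day 4. With weighted classes this list had 4 of 7 lower on day 6 (median -1.11), and within the optic vesicle class 3 of 7 (median -0.93), while the classes themselves were drawn from these genes. Anterior neural genes were lower for 2 of 3 on day 4 and 5 of 7 on day 6 (medians -1.79 and -1.29, with 0 of 4 called on day 6 under weighted classes), among them Six3 on day 4 at 4 UMIs in low-mt cells, 1.41 against 25.6 CPM. Primitive endoderm genes were lower for 1 of 3 and 6 of 6 (medians -0.90 and -2.80, with 0 of 3 called within the optic vesicle class of day 6), with Col4a1 at ratios of 0.224 and 0.1002. In the primed epiblast list 0 were higher and 3 of 7 lower on day 4 and 3 of 8 were higher and 2 lower on day 6 (medians -0.93 and 0.46). The day 6 direction turned with weighted classes, to 0 of 8 higher, 3 lower and a median of -0.77, and the median was -0.51 within the naive and primed classes. Pou5f1, the pluripotency factor OCT4, was at 292 CPM in low-mt cells and 339 CPM in other cells on day 4 and at 89.8 and 26.5 CPM on day 6. The naive pluripotent list gave 0 higher and 2 of 7 lower on day 4 and 1 higher and 2 lower of 6 on day 6 (medians 0.35 and 0.16), and 0 higher and 4 of 8 lower with weighted classes on day 6 (median -1.10), with Dppa5a at ratios of 0.456 and 0.394.

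Because make-up differed, the groups were also compared within classes, an alternative added after the data were seen. It used 229 low-mt and 6129 other cells of the primed class on day 4, 105 and 629 cells of the naive and primed classes on day 6, and 49 and 4741 cells of the optic vesicle class on day 6. The median log2 ratio of the 6 markers was 3.38 in the primed class on day 4, against 3.16 over all cells. On day 6 it was 2.53 in the naive and primed classes, against 3.79 over all cells, and the 3 markers that passed the level in the optic vesicle class had 3.13. The markers were picked for being high in these cells, and on day 6 all 6 passed the level only through them, so their direction is no result. For the stress response regulators the 3 values were 1.20, 1.31 and 0.86, for p53 targets 1.27, 0.89 and 1.53, and for lysosomal genes 1.18, 0.77 and 0.52. S phase genes gave -0.99, -0.99 and -0.72 and cholesterol synthesis -0.86, -1.15 and -0.87. The medians of these 5 lists kept their sign inside the classes, while on day 6 they were nearer to 0 than over all cells. Calls were fewer in the optic vesicle class, with 6 of 43 lysosomal genes higher and 7 of 36 S phase genes lower. Only 49 low-mt cells entered there, and calls also fell over all genes. Both lists stayed above the shares of all genes in that class, given at the end of this paragraph. Other lists also moved in this comparison, and class values are given with some of them. In the naive and primed classes of day 6, 10 of 37 complex I genes and 7 of 17 ATP synthase genes were lower. The medians there were -0.80 and -0.79, and -0.81 for complex IV, against -0.19 for all genes. In the optic vesicle class these 3 medians were -0.26, -0.26 and -0.15, against -0.26 for all genes. Mitochondrial chaperones and proteases gave 0.02 in that class and tRNA synthetases -0.14. Within the optic vesicle class alone, 239 of 6617 genes tested were higher and 449 lower on day 6, against 421 and 970 of 6807 over all cells.

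Markers of neurons, the cells in which Prph is best known, gave a mixed picture. Among all genes tested, 5.04% and 6.18% were higher and 7.33% and 14.3% lower. The neuron list had 3 of 8 tested genes higher and 2 lower on day 4, and 2 of 6 higher and 1 lower on day 6. Of those tested, 2 on day 4 and 1 on day 6 passed the level only through low-mt cells, the marker Prph on both days. The medians were -0.33 and -0.06, and -0.38 and -0.56 over members with at least 10 CPM in other cells. Its summed level was 444 CPM in low-mt cells and 371 CPM in other cells on day 4, and 308 and 180 CPM on day 6. Prph is itself on the list, and the other 24 genes summed to 321 CPM in low-mt cells and 365 CPM in other cells on day 4, and to 207 and 177 CPM on day 6. Of the 25 genes, 8 had no UMI in low-mt cells on each day, and 7 of these, among them Dcx, a marker of young neurons, had none on both. Tubb3, neuronal tubulin, had ratios of 0.758 and 0.418, while Gap43, a growth cone protein, had 3.65 and 3.69, and Neurod1, a transcription factor gene, stood at 22.5 CPM in low-mt cells and 1.84 CPM in other cells on day 4 and at 15.2 and 0.681 CPM on day 6, the last pair below the level for testing. These genes were chosen for naming with their values seen. The neuron class held 11.5% of low-mt cells against 1.38% of other cells on day 4 and 13.8% against 1.93% on day 6, and the part of these cells in the Prph level was not tested.

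Epithelial genes, a list that includes the marker Perp, were higher on day 6, when 7 of 7 tested were called, against 2 of 7 on day 4 (medians 2.15 and 0.79). The share of all genes higher was 6.18% on day 6 and 5.04% on day 4. Epcam, an epithelial adhesion protein also made by pluripotent cells, was at 232 CPM in low-mt cells and 35.3 CPM in other cells on day 6 (ratio 6.57, 5.93 to 7.26), and at 295 and 228 CPM on day 4 (ratio 1.29). Krt18, a keratin, had ratios of 1.83 and 3.89. In the naive and primed classes on day 6 the median of this list was 0.30 (1 of 9 higher, 2 lower), and in the optic vesicle class 3.78 (5 of 6 higher), so the size of the day 6 difference depended on the class.

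Among posterior neural genes only Wnt1 was tested, on day 6 (17.3 CPM in low-mt cells, 5.26 CPM in other cells), and in the neural crest list Crabp1 was the sole gene tested, with ratios of 0.457 and 0.221. Trophoblast and 2-cell-like genes had none tested and summed to 4.22 CPM in low-mt cells and 7.99 CPM in other cells on day 4, and to 13.7 and 5.06 CPM on day 6. Blood and endothelial genes summed to 3.52 and 3.65 CPM on day 4 and to 5.78 and 9.31 CPM on day 6, with none tested. Mesoderm and fibroblast genes had 0 tested on day 4 and 1 on day 6, not called, and summed to 15.5 against 10.5 CPM and 17.3 against 23.9 CPM. The sex linked list had 2 tested genes and no call on either day. Of 12 genes each, 11 on day 4 and 5 on day 6 were at 0 in low-mt cells for trophoblast, 10 and 7 for blood and endothelium, and 7 and 3 for mesoderm and fibroblast.

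Medians were also taken by chromosome, without ribosomal protein genes and Malat1. They ranged from -0.35 to -0.11 on day 4 and from -0.45 to -0.21 on day 6 over 20 chromosomes, around the medians of all genes. The X chromosome was lowest on both days. Such medians follow the general offset of the ratios and do not show where the called genes lie.

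Many calls were shared between the days. Of 6222 genes tested on both, 208 were higher on both (3.34%) and 276 lower on both (4.44%). The 208 were 70.7% of the 294 genes higher on day 4 and 56.4% of the 369 higher on day 6. The 276 were 61.6% of the 448 lower on day 4 and 33.8% of the 816 lower on day 6. Across these genes, which are not independent and share the cell selection and total, Pearson's r of the log2 ratios was 0.79 and Spearman's rho 0.76. Fgf5 (chromosome 5), a growth factor of the primed epiblast, was the 1 gene called in opposite directions. It was at 53.5 CPM in low-mt cells and 176 CPM in other cells on day 4 (ratio 0.304, 0.257 to 0.356), and at 23.6 and 7.16 CPM on day 6 (ratio 3.30, 2.38 to 4.47), where the other cells were mostly of the optic vesicle class. On day 6 Fgf5 passed the level for testing only through low-mt cells, so its call there is in part set by the filter. With other cells weighted to the classes of low-mt cells the day 6 log2 ratio was -1.43 and called lower, and within the naive and primed classes it was -0.41 and not called, so the opposite call was lost.

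**Figure D5:**
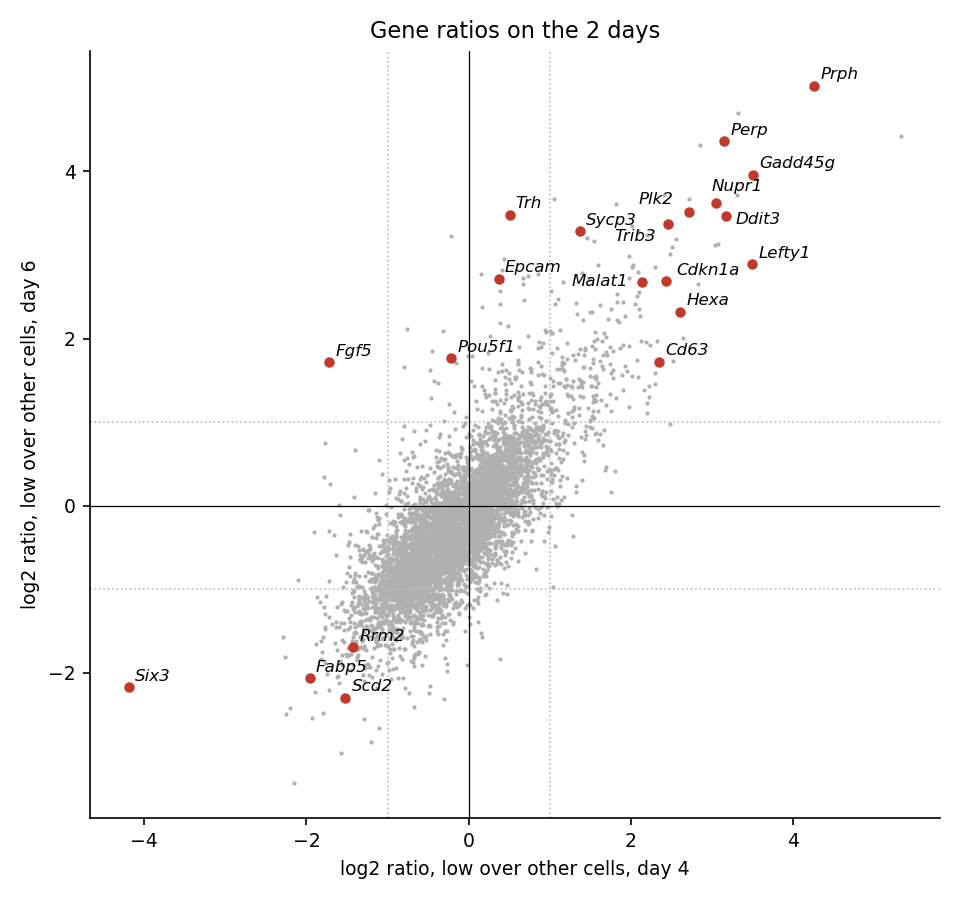
Log2 ratio of low-mt over other cells on day 4 (x axis) and day 6 (y axis) for the 6222 genes tested on both days; dotted lines mark 2-fold. Prph, Perp, Gadd45g, Nupr1, Ddit3 and Plk2 lie at the upper right, Fabp5, Scd2 and Rrm2 at the lower left, and Fgf5 in the opposite quadrant at -1.72 on day 4 and 1.72 on day 6.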

How the data were processed

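Unnormalised UMI counts were deposited for 1 library per day. Cell Ranger 2.0.1, Seurat 2.3.4 and build mm10 stand in the submitters' processing notes, whereas the study's methods name later versions. The matrices still held barcodes outside the gene and UMI limits, and fewer barcodes in all than the cells the study states. Cells were filtered as given in the report, doublets were not called, and leaving out the 10% of cells with the most UMIs was an alternative. Counts were summed over cells and compared with exact binomial and Poisson intervals (Python 3.11.15, numpy 2.4.6, pandas 2.3.3, scipy 1.17.1, matplotlib 3.10.9). The calculation was tested on simulated data. Low-mt cells, the 42 gene lists and the 3 lists added later were chosen with earlier results of these data known. Named genes were the 6 markers, the 10 highest and 10 lowest ratios per day at a mean of at least 50 CPM (without mt-, ribosomal protein, haemoglobin and unnamed genes) and up to 4 members per list with the largest mean difference over the days. Chromosomes came from GENCODE and promoters from RefSeq, both of build GRCm38, which is mm10. Lower depth in low-mt cells gives wider intervals, and 3' tags cannot separate isoforms.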

Additional observations from a re-analysis of the deposited data

Results flagged for a closer look

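Fgf5 was called in opposite directions on the days, with a log2 ratio of low-mt over other cells of -1.72 on day 4 and 1.72 on day 6, and the difference between the days was not tested. On day 6 Fgf5 passed the level for testing only through low-mt cells. With other cells weighted to the classes of low-mt cells the day 6 value was -1.43 and called lower, and within the naive and primed classes it was -0.41, so the opposite call was lost. Barcodes under 0.5% mitochondrial UMIs that the gene and UMI limits left out, 1 on day 4 (44594 UMIs) and 7 on day 6 (26545 to 59928 UMIs), also carried the 6 markers above the level of other cells. The single day 4 barcode had a summed level of 337 CPM (188 to 555), against 62.0 CPM in other cells. The 7 day 6 barcodes had 311 CPM (245 to 390), against 36.4 CPM in other cells.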

How the results depend on the processing

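On day 4 the 339 low-mt cells became 198 under a limit of 0.1%. Genes higher on day 4 (328) became 574 without ribosomal protein genes in the total, 195 at 10 CPM or more in other cells, 76 at a mean level of 50 CPM and 1107 with no filter. Genes lower on day 4 (477) became 820 under 0.25%, 938 under 0.1%, 237 under 1%, 223 when centred on the median gene, 141 at 50 CPM and 1048 with no filter. Genes higher on day 6 (421) became 844 without ribosomal protein genes, 750 when centred, 219 at 10 CPM in other cells, 100 at 50 CPM, 1482 with no filter and 239 in the optic vesicle class. Genes lower on day 6 (970) became 402 under 1%, 391 when centred, 639 with other cells weighted to the classes of low-mt cells, 326 at 50 CPM, 1600 with no filter and 449 in the optic vesicle class. The 0.1% limit and the comparisons within classes were chosen after seeing the data. At a mean of 50 CPM fewer genes were tested (2198 on day 4, 2291 on day 6), and at 10 CPM in other cells the genes that passed only through low-mt cells drop out, although more were tested in all (6557 and 6883). For the rest the cause was not tested.

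On day 6 some named genes changed sign. With weighted classes the log2 ratio was -1.43 for Fgf5, -0.20 for Hspb1, -0.10 for Utf1 and -0.0889 for Rpl39l. Within the naive and primed classes it was 0.24 for Hes5, -0.41 for Fgf5, -1.63 for Hspb1, -0.63 for Utf1, -1.15 for Klf2, -0.34 for Krt19, 0.10 for Lamb1, -0.88 for Rpl39l and -0.51 for Pou5f1. Within the optic vesicle class it was 0.16 for Hes5 and 0.22 for Sparc. The named genes called higher kept that call in 506 of 514 alternative values on day 4 and 611 of 644 on day 6, and those called lower in 653 of 722 and 930 of 1078. They were picked for large differences in these data, which favours this. Of all 421 genes higher on day 6, 251 kept the call with weighted classes. Within the naive and primed classes 171 did, and within the optic vesicle class 156. Of the 970 lower, 556, 370 and 261 did. On day 4, 301 of 328 higher and 450 of 477 lower genes kept it with weighted classes. No paired analysis was possible because each day is 1 pooled library. The same lack of replicates limits every difference here to these libraries, and at this depth genes under 10 CPM were not compared.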
